A study of Mus musculus with 12 samples.

Results

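Normal back skin from E18.5 mouse embryos was compared between the 2 arms of a keratin knockout study, on the 6 bead arrays titled Wild type II or Wild type I among 12 arrays in all. Wild type II (3 arrays) served as the control of the arm labelled type II keratin KO (3 arrays), whose embryos lack the type II keratin genes. Wild type I (3 arrays) was the control of the arm labelled type I keratin KO (3 arrays), whose embryos lack the type I keratin genes. All 4 groups are labelled C57BL/6, were collected at the same age and carry no treatment in the labels, and neither wild type carries a deletion there. Each title opens with a number that a wild type shares with the knockouts of its own arm: 2794, 2818 and 2819 for replicates 1 to 3 of wild type II, against 2705 for replicates 1 and 2 and 2602 for replicate 3 of wild type I. The labels do not say what these numbers stand for or whether each array is a separate embryo, so p-values reflect array-to-array spread alone, some of which may be technical. No number occurs in both arms, so that mouse line, litter and handling cannot be told apart in the comparison of the wild types.

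Skin at the end of gestation is nearly complete as a barrier. Basal keratinocytes, which carry keratins 5 and 14, feed suprabasal layers with keratins 1 and 10, and the outermost cells build the cornified envelope from loricrin and the small proline-rich and late cornified envelope proteins. Below lie a collagen-rich dermis with growing hair follicles and their pigment cells, a fat layer and a sheet of skeletal muscle, all of which can enter a sample of back skin. In such bulk RNA, fewer cells of a type and less RNA per cell cannot be told apart.

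Between 13345 and 13693 of 25697 probes were detected per array (51.9% to 53.3%, detection p under 0.05), with raw median signals of 114 to 138. A probe was used if detected on at least 3 of the 6 arrays, and with 1 probe per gene this left 10505 genes (9708 named genes and 797 probes with no gene name), of which 9437 were detected on all 6 arrays. All levels below are log2 signals after background correction and quantile normalization, and differences are wild type II minus wild type I. Pearson correlations across genes were 0.984 to 0.988 within wild type II and 0.973 to 0.986 within wild type I. Replicate 3 of wild type I, the only wild-type array with title number 2602, stood apart. It reached 0.955 to 0.963 with the wild type II arrays, where replicates 1 and 2, which share a title number, reached 0.972 to 0.982. Genes varied more in wild type I: the median within-group SD was 0.13 in wild type II and 0.20 in wild type I, and 67.7% of genes had the larger SD in wild type I. The keratins of both clusters were present on every array. Krt14 read 14.38, 14.23 and 14.15 in wild type II and 14.15, 14.30 and 14.17 in wild type I, and Krt5 read 11.30, 10.67 and 10.14 in wild type II and 10.82, 10.64 and 10.79 in wild type I. Krt10 and Krt1 likewise overlapped between the groups, with differences of -0.10 ± 0.12 and 0.17 ± 0.35 (SE, n = 3 each), neither past the threshold.

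The 20 named genes with the brightest probes describe what such a sample holds; they are given without an order, since the brightness of different probes cannot be compared. Keratinocytes contributed Krt10, Krt14 and loricrin (Lor), the main protein of the cornified envelope. Muscle contributed 3 sarcomere genes, the perinatal myosin heavy chain Myh8, the fast myosin light chain Myl1 and the skeletal actin Acta1. Red blood cells contributed the globin Hba-a1. The others were the fetal growth factor Igf2, the chaperone Hspa8, the membrane-binding annexin Anxa2, the ubiquitin-related Ubb-ps, the ATP synthase subunit Atp5g3 and 8 ribosomal protein genes. All 20 lay between 13.85 and 14.69 on every array. These are the top ranks of the scale, where quantile normalization gives every array the same set of values (Myh8 read 14.69 on all wild type II arrays), so that differences among them are compressed and their small size is no measure of stability. None was called between the wild types (0 of 20 by limma with adjusted p under 0.05; 3 of 20 had groups that did not overlap, against 28.5% of all genes), and their differences ran from -0.27 to 0.28.

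Markers of other tissues were few or dim. Of 15 markers of cartilage, bone, liver, neurons, lung and gut, 4 entered, Col2a1, Col9a1, Ibsp and Stmn2, and none was called. The same held for 3 of 12 neutrophil and 4 of 15 lymphocyte markers. Within the skin, 13 of 16 basal and 16 of 20 suprabasal keratinocyte markers, 26 of 30 dermal matrix genes, 30 of 35 muscle genes and 15 of 20 fat cell genes entered. Shares were lower for other lists of the skin: 32 of 57 cornified envelope, 11 of 23 hair keratin, 10 of 31 erythroid and 5 of 16 Schwann cell genes. Listed genes without a probe were not told apart from undetected ones, so these shares do not rank the tissues.

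The 2 wild types differed in 150 of the 10505 genes at an adjusted p under 0.05 (1.43%; limma's moderated test, Benjamini-Hochberg over all genes). In wild type II 45 genes were higher (0.428%) and 105 were lower (1%). Of the named genes, 40 were higher and 88 lower. At an unadjusted p under 0.05 stood 2138 genes (20.4%), and in 2991 (28.5%) the groups did not overlap, including all 150 called. Most genes differed little: 88% lay within 0.5 of 0 on the log2 scale, beside a median SE of 0.15. Of the called genes 21 were at least 2-fold higher and 55 at least 2-fold lower. Of the higher genes 9 were undetected on all wild type I arrays, beside 47 of all genes tested. Of the lower genes 5 were undetected on all wild type II arrays, beside 43. Such genes met the detection filter only through the group where they were high, so their p-values are no separate support. With median scaling in place of quantile normalization the median of all genes shifted to 0.12, against 0.02, and the calls split into 88 higher and 78 lower. The count fell when any 1 array was left out, and each such fit also had fewer arrays to work with. It was 20, 22 and 22 without replicates 1, 2 and 3 of wild type II. Without replicates 1, 2 and 3 of wild type I it was 67, 20 and 103. Of 47 called genes examined by name, 7 kept the call under every one of the alternatives computed for them: Lars2, Tagap, Xkr8, Paip1, Tac1, Gjd4 and Arhgap35.

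**Figure D1:**
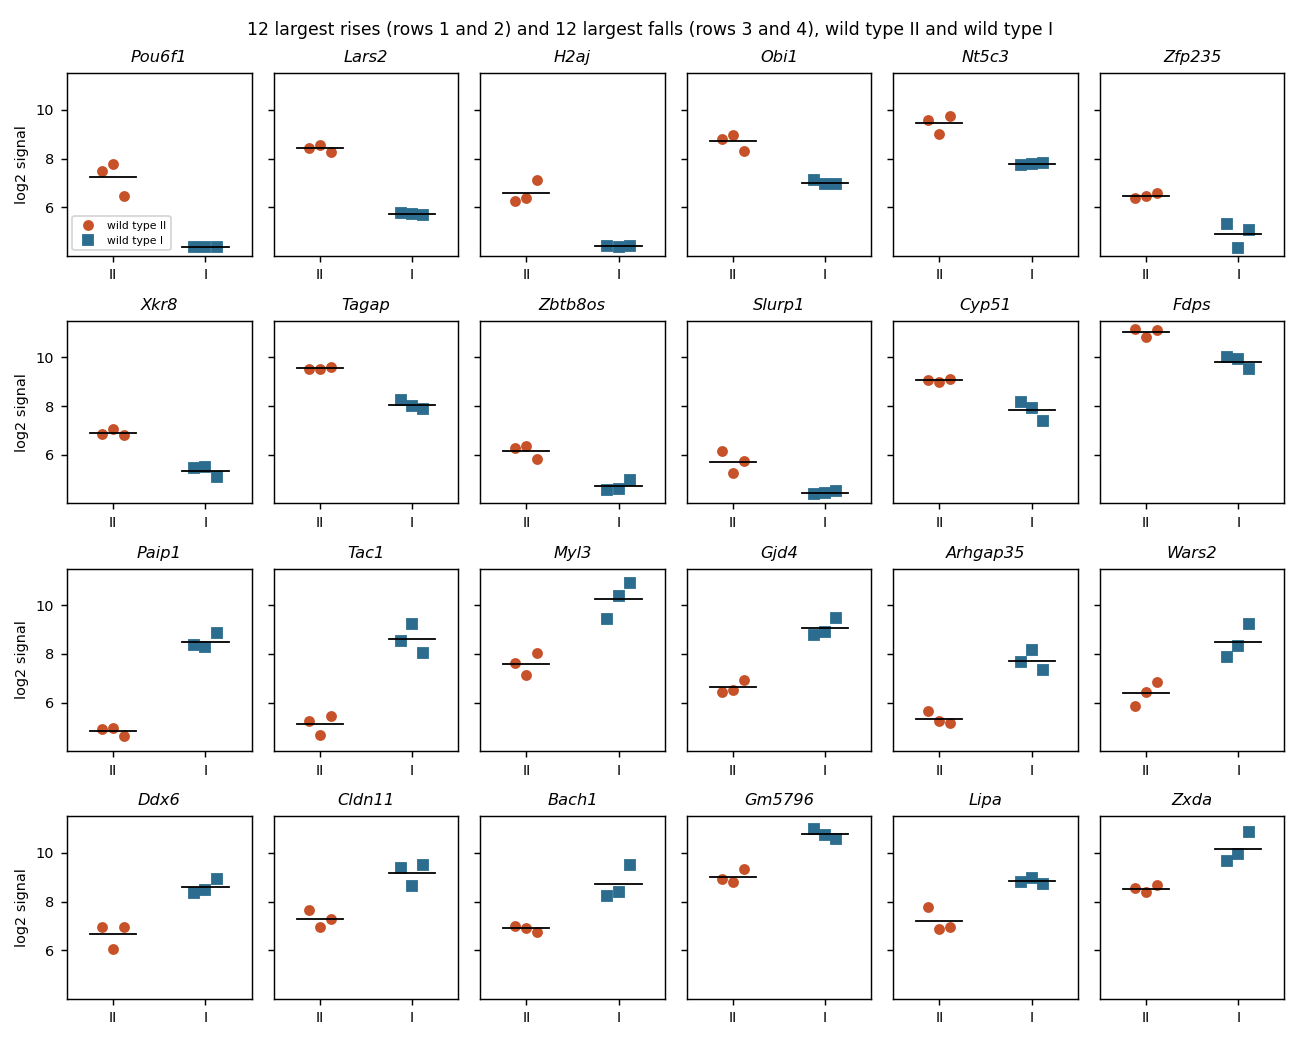
Log2 signal (vertical axis) for the 12 largest rises and the 12 largest falls, with wild type II as circles on the left, wild type I as squares on the right and bars at the mean of 3 arrays. The 24 genes were chosen among called genes whose groups do not overlap. No wild type I array detected Pou6f1, H2aj, Zbtb8os or Slurp1, and no wild type II array detected Paip1.

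Among the genes higher in wild type II, Lars2, the mitochondrial leucyl-tRNA synthetase, had the smallest p. It read 8.44, 8.54 and 8.27 in wild type II and 5.78, 5.73 and 5.70 in wild type I, a rise of 2.68 ± 0.12 (SE, n = 3 each; 6.39-fold; adjusted p = 0.00033). The arrays of each group lay close together and the groups were far apart.
Pou6f1, a POU-domain transcription factor, read 7.50, 7.78 and 6.45 in wild type II and 4.39, 4.37 and 4.39 in wild type I, where no array detected it, so that it was at least 4.66-fold higher (adjusted p = 0.0159). It lies on chromosome 15, with 15 protein-coding genes between it and Krt80, the nearest type II keratin gene in the RefSeq order (GRCm38.p6). H2aj, a histone H2A variant, read 6.25, 6.37 and 7.10 in wild type II and 4.41, 4.37 and 4.42 in wild type I, again undetected there, and was at least 2.94-fold higher (adjusted p = 0.013). Both genes thus had a measured level, and met the detection filter, in wild type II alone.

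Tagap, a GTPase-activating protein known from T cells, read 9.52, 9.54 and 9.61 in wild type II and 8.27, 8.01 and 7.89 in wild type I (1.5 ± 0.13; adjusted p = 0.00996). A dimmer Tagap probe moved by 0.22 ± 0.12 and was not called. Xkr8, a scramblase that exposes phosphatidylserine on dying cells, read 6.85, 7.05 and 6.82 in wild type II and 5.47, 5.50 and 5.08 in wild type I (1.56 ± 0.15; adjusted p = 0.0118). Both were separated by more than 1 log2 unit between the nearest arrays of the groups. The remaining largest rises were Obi1 (1.69 ± 0.18), a ubiquitin ligase of the replication origin complex, the nucleotidase Nt5c3 (1.67 ± 0.19) and the zinc finger gene Zfp235 (1.57 ± 0.24), with Cyp51 and Fdps, described below. Zbtb8os, a tRNA ligase cofactor, was at least 2.21-fold higher and Slurp1, a secreted epidermal protein, at least 1.63-fold higher, both undetected on all wild type I arrays. Lypd2, the gene next to Slurp1 and of the same Ly6 family, was at least 1.38-fold higher (adjusted p = 0.0194), again undetected on all wild type I arrays.

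The largest fall was that of Paip1, which encodes a partner of the poly(A)-binding protein in translation. Its levels were 4.91, 4.95 and 4.64 in wild type II, where it was not detected, and 8.37, 8.30 and 8.85 in wild type I, at least 11.4-fold lower in wild type II (adjusted p = 0.000377). Tac1, the precursor of the sensory neuropeptide substance P, read 5.25, 4.68 and 5.47 in wild type II and 8.54, 9.22 and 8.05 in wild type I (-3.47 ± 0.32; adjusted p = 0.00996). In both genes wild type II was at or near background on every array.
Gjd4, a connexin of developing muscle, read 6.45, 6.50 and 6.94 in wild type II and 8.79, 8.88 and 9.49 in wild type I (-2.43 ± 0.22; adjusted p = 0.00996). Arhgap35, a regulator of the cytoskeleton, read 5.64, 5.23 and 5.17 in wild type II and 7.65, 8.16 and 7.32 in wild type I (-2.37 ± 0.23; adjusted p = 0.0128). Neither pair of groups came close to overlapping.

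Myl3, the slow-muscle and ventricular myosin light chain, fell by 2.64 on the log2 scale (SE 0.38; adjusted p = 0.0277), with 7.61, 7.14 and 8.03 in wild type II and 9.41, 10.38 and 10.90 in wild type I. Its highest array, replicate 3 of wild type I, was also highest for the muscle list as a whole. Wars2, the mitochondrial tryptophanyl-tRNA synthetase, fell by 2.08 (SE 0.37; adjusted p = 0.0484), and a dimmer probe of it read -0.79 ± 0.18, which was not called. Ddx6, an RNA helicase of processing bodies, fell by 1.92 (SE 0.27; adjusted p = 0.0259). Its other probes differed by -1.30 ± 0.24 and -0.37 ± 0.28.
The other largest falls were the tight junction gene Cldn11 (-1.87 ± 0.26), the haem-sensing repressor Bach1 (-1.81 ± 0.31), the lysosomal acid lipase Lipa (-1.63 ± 0.24), the X-linked zinc finger gene Zxda (-1.62 ± 0.29) and the predicted gene Gm5796 (-1.74 ± 0.18). Gm3696, also on chromosome 14, was undetected on all wild type II arrays and at least 2.74-fold lower there (adjusted p = 0.0233); predicted genes of this kind can be near-identical copies, so that these 2 calls may share signal. Of 22 called genes with several probes, only 4 had another probe called the same way, and none had one called the other way. In 13 another probe had an unadjusted p under 0.05 in that direction, and in 18 all other probes moved the same way.

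Called genes that sit directly beside each other in the RefSeq order moved the same way. There were 4 such pairs, picked out after their values were seen: Slurp1 and Lypd2 (higher), Fbn2 and Slc27a6 on chromosome 18 (lower), H2ac21 and H2ac20 (lower), and the imprinted neighbours Peg3 and Usp29 on chromosome 7 (lower). Slurp1, Lypd2 and Usp29 were undetected on all arrays of their lower group, so they met the detection filter only through the other group. Of the 150 called genes 105 were lower, which favours a shared direction, and the number of pairs to be awaited was not computed. Peg3 read 6.90, 7.17 and 7.54 in wild type II and 8.06, 8.27 and 8.15 in wild type I (-0.96 ± 0.17, adjusted p = 0.0486). Its call was lost under 12 of 20 alternatives. Of 14 imprinted growth genes measured, 12 had negative differences, beside 47.6% of all genes (median -0.19, against 0.02 over all genes), and 1 was called, Peg3, beside 1.43% of all genes.

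Of the 38 gene lists, cholesterol synthesis had the most genes called higher in wild type II. Cells make cholesterol from acetyl-CoA through mevalonate, squalene and lanosterol, and the epidermis needs it for the lipid layers of its barrier. Of 18 measured genes of this list 5 rose, beside 0.428% of all genes, and 0 fell. Positive differences were seen in 16, beside 52.4% of all genes, and groups that did not overlap in 14, beside 28.5%. Their median difference was 0.69, beside 0.02 over all genes. The lists were chosen with earlier results of these data known, so these shares describe the list and are no independent test. The 5 span the pathway: Hmgcs1 makes HMG-CoA, Mvd and Fdps build the isoprenoid chain, Lss closes the sterol ring and Cyp51 trims it.

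The promoters of 4 of the 5 are shown because these genes moved together, as the 250 bases before the start in RefSeq GRCm38.p6, written 5′ to 3′ on the gene's strand; Fdps is named only. They lie at chr13:119690101-119690350, plus strand (Hmgcs1), chr8:122443423-122443672, minus strand (Mvd), chr10:76531355-76531604, plus strand (Lss) and chr5:4104698-4104947, minus strand (Cyp51). Capitals mark 2 motifs searched on both strands: CCAAT, bound by the factor NF-Y, and the octamers CACCCCAC or CACCGCAC of the sterol regulatory element.
Hmgcs1: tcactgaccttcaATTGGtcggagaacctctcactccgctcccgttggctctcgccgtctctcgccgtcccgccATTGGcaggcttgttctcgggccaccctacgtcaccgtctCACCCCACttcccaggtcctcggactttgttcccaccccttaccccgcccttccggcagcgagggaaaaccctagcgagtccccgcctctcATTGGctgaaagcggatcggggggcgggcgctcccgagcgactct
Mvd: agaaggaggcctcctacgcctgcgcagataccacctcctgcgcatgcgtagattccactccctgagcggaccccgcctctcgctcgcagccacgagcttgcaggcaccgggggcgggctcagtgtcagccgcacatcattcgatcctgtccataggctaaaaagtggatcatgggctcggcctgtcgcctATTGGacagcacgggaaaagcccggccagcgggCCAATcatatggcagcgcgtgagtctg
Lss: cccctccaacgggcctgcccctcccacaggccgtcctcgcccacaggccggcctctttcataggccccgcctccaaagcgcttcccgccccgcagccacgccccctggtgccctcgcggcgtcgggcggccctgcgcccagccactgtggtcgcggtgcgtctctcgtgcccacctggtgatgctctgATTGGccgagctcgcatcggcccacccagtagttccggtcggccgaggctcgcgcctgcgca
Cyp51: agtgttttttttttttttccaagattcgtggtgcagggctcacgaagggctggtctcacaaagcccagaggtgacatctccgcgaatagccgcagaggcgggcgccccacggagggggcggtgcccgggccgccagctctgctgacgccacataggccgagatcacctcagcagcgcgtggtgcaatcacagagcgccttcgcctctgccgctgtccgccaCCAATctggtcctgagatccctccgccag
All 4 windows held CCAAT, with 3 copies in Hmgcs1, 2 in Mvd and 1 each in Lss and Cyp51, and Hmgcs1 alone held an octamer. Of the 15 promoters found for the measured genes of the list, 14 (93.3%) held CCAAT and 1 (6.67%) an octamer, beside 34.5% and 2.98% of 27025 promoters of that length. The 27025 include promoters of genes not measured in this skin, so the sets are unlike and the shares are no test. Such matches are descriptions of letters and show no binding, and the windows hold both genes that were called and genes that were not.

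Fdps, farnesyl diphosphate synthase, read 11.16, 10.84 and 11.12 in wild type II and 10, 9.94 and 9.51 in wild type I (1.23 ± 0.17; 2.34-fold; adjusted p = 0.0255). Cyp51, lanosterol demethylase, read 9.06, 9 and 9.13 in wild type II and 8.17, 7.93 and 7.41 in wild type I (1.23 ± 0.19; adjusted p = 0.0354). For both, the arrays of wild type II lay within a narrow band and replicate 3 of wild type I was lowest.
Lss, lanosterol synthase, read 8.75, 8.47 and 8.78 in wild type II and 7.69, 7.93 and 7.40 in wild type I (0.99 ± 0.17; adjusted p = 0.0421). Mvd rose by 0.94 ± 0.16 (adjusted p = 0.0443) and Hmgcs1 by 0.67 ± 0.12 (adjusted p = 0.0474). Msmo1 (0.97 ± 0.18; adjusted p = 0.0515) and Nsdhl (0.70 ± 0.13; adjusted p = 0.0579), which act after Cyp51, missed the threshold with groups that did not overlap.
Srebf2, whose protein switches on the pathway, read 7.82, 7.95 and 8 in wild type II and 7.86, 7.51 and 8.10 in wild type I, which overlapped (chosen after its values were seen). Stard4, a cholesterol carrier, had the opposite sign (-1.11 ± 0.29; adjusted p = 0.105).
The median kept its sign when any 1 array was left out (0.58 to 0.76), but the calls did not hold: 0 genes of the list were called without any 1 of the wild type II arrays or without replicate 2 of wild type I, and 3 without replicate 1 or replicate 3 of wild type I. With a covariate for sex, read from sex-linked transcripts, 0 were called.

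**Figure D2:**
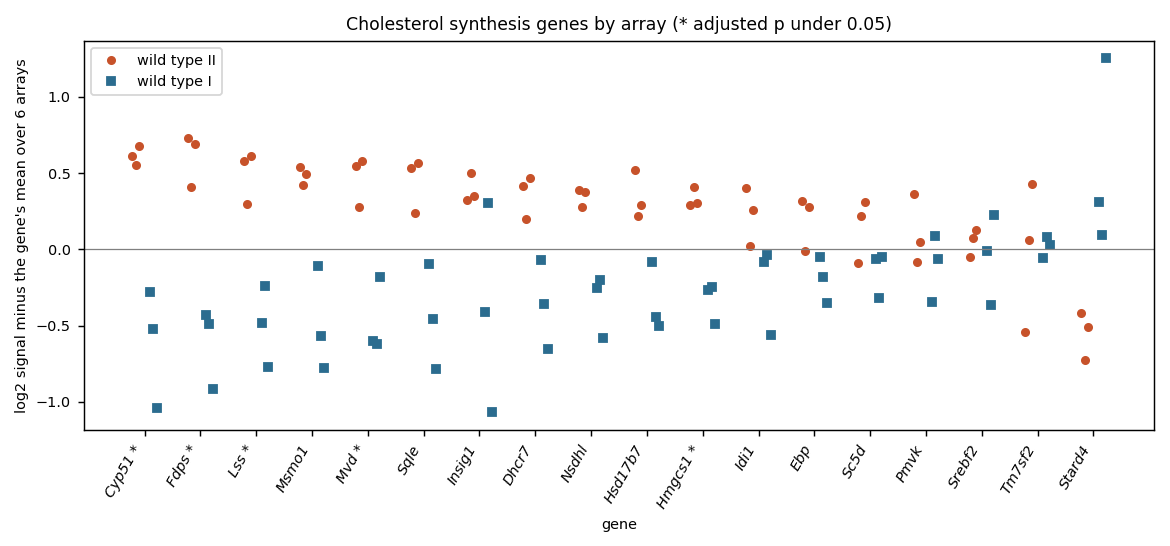
Log2 signal of each cholesterol synthesis gene minus that gene's mean over the 6 arrays (vertical axis), by gene in order of the difference, with wild type II as circles on the left, wild type I as squares on the right and asterisks at the 5 called genes. In 14 of the 18 genes the groups do not overlap, and Stard4 runs the other way.

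Several replication-dependent H2A genes were lower in wild type II, unlike the variant H2aj described above. Histones of the replication-dependent kind are made in S phase from clustered, nearly identical gene copies whose transcripts normally lack a poly(A) tail. Of 31 replication-dependent histone genes measured 5 fell, beside 1% of all genes, and 0 rose. All 5 encode H2A: H2ac7, H2ac12, H2ac15, H2ac20 and H2ac22. H2ac12 read 9.21, 8.78 and 8.59 in wild type II and 9.90, 10.23 and 10.05 in wild type I (-1.20 ± 0.18; adjusted p = 0.0313). H2ac20, one of the brighter, read 12.62, 12.38 and 12.33 in wild type II and 13.14, 13.46 and 13.56 in wild type I (-0.94 ± 0.15; adjusted p = 0.0378). In both the highest wild type II array was replicate 1 and it stayed below every wild type I array.
Outside the list, and named after their values were seen, H2ac10 (-1.14 ± 0.15), H2ac21 (-1.42 ± 0.16) and H2ac24 (-0.84 ± 0.14) fell too. That made 8 of 12 measured H2ac genes lower and 0 higher, beside 1% of all genes lower, and the other 4 differed by -0.30 to 0.07. Of 22 other replication-dependent histone genes 0 were called, beside 1.43% of all genes, which leaves too few to set them against the H2A genes. Near-identical copies can share probe signal, so the 8 are uncertain as separate genes. Fewer of the 5 were called without single arrays: 2, 0 and 0 without replicates 1, 2 and 3 of wild type II, and 1, 0 and 0 without replicates 1, 2 and 3 of wild type I. With all 12 arrays in the fit 0 were called, and with median scaling 2.

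Single members of other lists were called. Sfn (14-3-3 sigma), a keratinocyte checkpoint protein, read 8.85, 8.73 and 9.15 in wild type II and 8.14, 7.87 and 8.11 in wild type I (0.87 ± 0.15; adjusted p = 0.0442). Trps1, a repressor needed for hair follicles, read 9.44, 9.44 and 9.07 in wild type II and 10.34, 10.12 and 10.10 in wild type I (-0.87 ± 0.15; adjusted p = 0.0421). Adm, the vasodilator peptide adrenomedullin, read 5.55, 5.37 and 5.25 in wild type II and 6.42, 6.35 and 6.27 in wild type I (-0.96 ± 0.12; adjusted p = 0.0233). Each pair of groups was apart by a small step with tight replicates, but the calls depended on the processing. Of 20 alternatives, 10 lost the call for Sfn, 12 for Trps1 and 9 for Adm. Of the 38 lists of cell types and pathways, 32 had no called member, 29 had a median difference within 0.2 of 0, and of 691 distinct genes in them 14 were called (2.03%, beside 1.43% of all genes).

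Several lists without a called gene varied among the arrays of one group. Hair shaft and inner root sheath keratins, which form the emerging hair, had a median difference of 1.65 over 11 genes, 10 of them positive. As a mean deviation from the 6-array mean the list stood at 0.71, 1.52 and -0.27 on the wild type II arrays and at -0.29, -0.92 and -0.75 on the wild type I arrays, so that replicate 2 of wild type II was highest and replicate 3 lay close to replicate 1 of wild type I and above its other two arrays. Krt27, an inner root sheath keratin, read 11.28, 11.83 and 9.98 in wild type II and 9.36, 8.44 and 8.87 in wild type I (2.14 ± 0.46; adjusted p = 0.0707), without overlap between the groups. Krt26, another inner root sheath keratin, and the hair shaft keratin Krt33a had adjusted p-values of 0.0665 and 0.0688. The list's median was 1.06 without replicate 2 of wild type II and up to 2.14 without another array (replicate 3), and it was 0.85 without background correction and 0.95 with no filter on dim probes.

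Melanocyte genes had the same order as hair keratins within wild type II but not within wild type I. The list of 7 had a median of 1.20 and mean deviations of 0.77, 1.36 and -0.37 in wild type II and -0.72, -0.08 and -0.97 in wild type I. Tyrp1, an enzyme of melanin synthesis, read 9.75, 10.90 and 7.31 in wild type II and 5.75, 8.26 and 4.56 in wild type I, and Dct, the enzyme before it, read 10.94, 11.45 and 9.05 in wild type II and 8.35, 9.26 and 7.42 in wild type I. Both overlapped between the groups (adjusted p = 0.182 and 0.145), and both dimmer Tyrp1 probes had the same order in wild type II. The list's median was 0.70 without replicate 2 of wild type II, up to 1.70 without another array (replicate 3), and 0.72 without background correction. Mitf, the melanocyte master regulator, was dim, undetected on all wild type II arrays and detected on all wild type I arrays (adjusted p = 0.125).

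Cornified envelope and late differentiation genes had a median of -0.29 over 32 genes, 25 of them negative and 0 called. Replicate 2 of wild type II, the array highest in hair keratins, was lowest here, with a mean deviation of -0.75, against 0.15 and 0.00 on the other two arrays of its group and 0.10 to 0.31 in wild type I. Lce1g read 9.98, 8.97 and 9.72 in wild type II and 10.96, 11.03 and 10.63 in wild type I (-1.32 ± 0.26; adjusted p = 0.0595). Its groups did not overlap, nor did those of Sprr2a1 and Lce1f, at adjusted p-values of 0.0814 and 0.0971. The list's median was -0.07 without replicate 2 of wild type II, -0.47 and -0.49 without its replicates 1 and 3, -0.45 without replicate 3 of wild type I, and -0.12 with median scaling.

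Fat and muscle genes each stood out on 1 array of wild type I. The 15 fat cell genes had a mean deviation of 0.91 on replicate 2 and between -0.44 and 0.10 on the other 5 arrays, and their median difference was -0.12, which turned to 0.16 without that array and was -0.35 without replicate 3 of wild type I. Cidea, a lipid droplet protein of brown fat, read 10.69 on that array and 5.89 to 6.71 on the others (chosen after its values were seen). The 30 muscle genes stood at 0.49 on replicate 3 and between -0.28 and -0.02 elsewhere. None of the 30 was called, and their median was -0.19. Tnni1, the slow-fibre troponin I, read 6.87, 6.49 and 7.06 in wild type II and 7.54, 8.28 and 8.85 in wild type I (-1.42 ± 0.32; adjusted p = 0.0776), and the slow-fibre troponin C gene Tnnc1 differed by -1.63 ± 0.41 (adjusted p = 0.0967). Cell cycle genes had a median of 0.28 with 0 of 30 called, and replicate 3 of wild type I was lowest at -0.40. Ribosomal protein genes varied least, with mean deviations of -0.04 to 0.04 over 45 genes. Rps15a, a ribosomal protein gene outside that list (named after its values were seen), was called higher (1.17 ± 0.21; adjusted p = 0.0483).

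**Figure D3:**
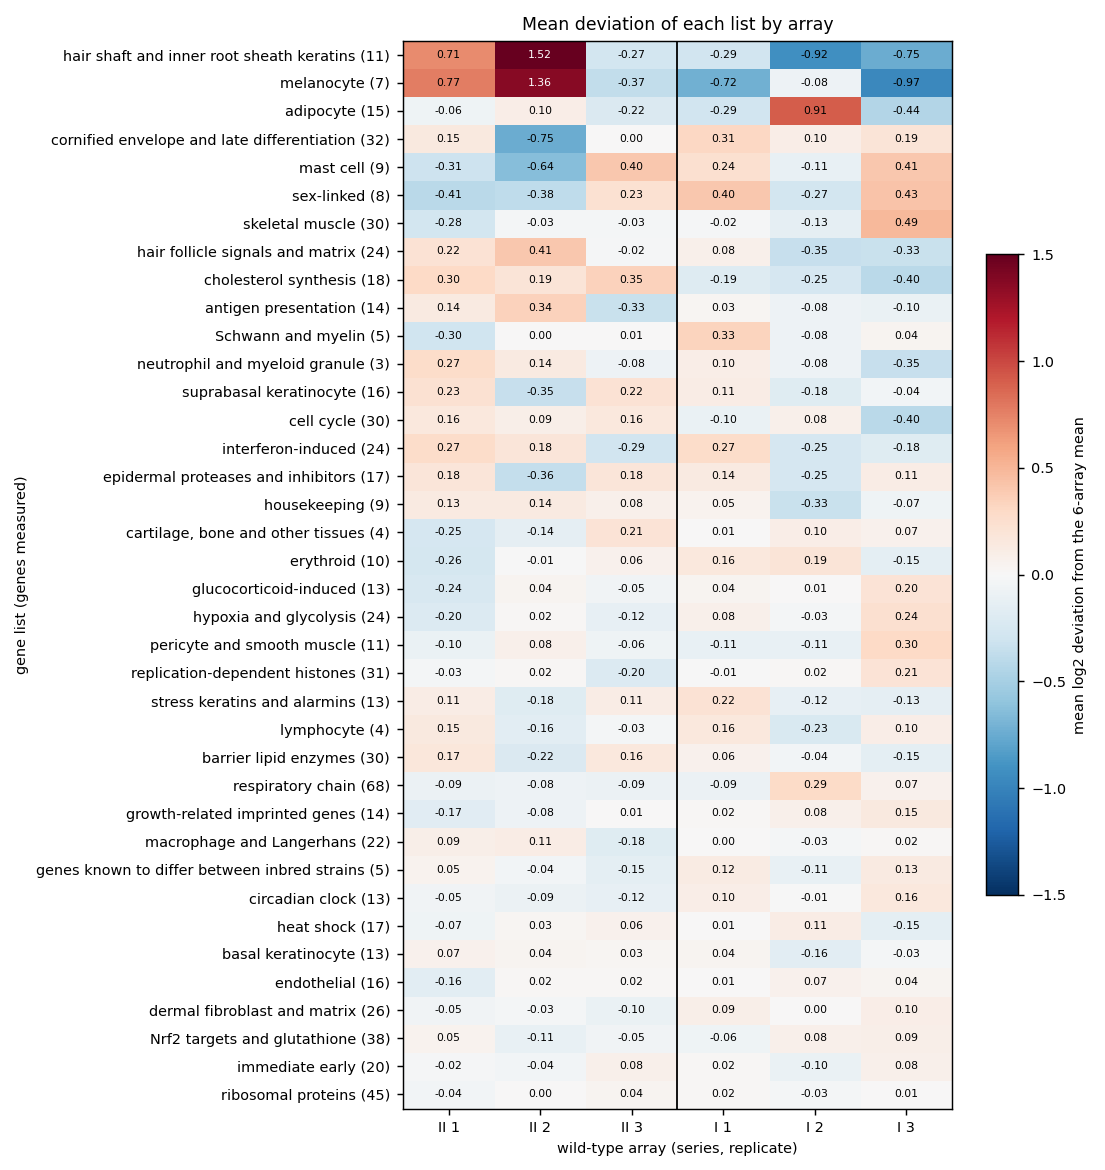
Mean log2 deviation of the measured genes of each list from their 6-array mean, with the wild type II arrays in the left 3 columns, the wild type I arrays in the right 3 and the lists ordered by their range over arrays. Hair keratins reach 1.52 on replicate 2 of wild type II, fat cell genes 0.91 on replicate 2 of wild type I, and ribosomal protein genes stay within 0.04 of 0.

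Among the genes with the largest spread within groups, some were low on several arrays and high on others, and some dropped on a single array. Both wild types held arrays of both kinds by sex-linked transcripts. Xist, the RNA of the inactive X, was detected on replicates 1 and 2 of wild type II (8.49 and 8.63) and on replicate 2 of wild type I (8.67), while the Y-linked Eif2s3y was high on replicate 3 of wild type II (10.29) and on replicates 1 and 3 of wild type I (10.75 and 10.54). Kdm5d, also Y-linked, followed Eif2s3y. With sex as a covariate 33 genes were called between the wild types, 14 higher and 19 lower.

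Some autosomal genes switched too. Ctsc, the lysosomal protease cathepsin C, read 10.75, 10.01 and 6.07 in wild type II and 5.59, 9.32 and 5.44 in wild type I, and its other 2 probes had the same high and low arrays. Tpsab1, a mast cell tryptase known to be inactivated by a splice mutation in C57BL/6 mice, read 5.53, 5.06 and 10.64 in wild type II and 10.15, 6.59 and 11.74 in wild type I. In the wild types Ctsc was high on the arrays that detected Xist and Tpsab1 on the others. The mast cell gene Cpa3, a carboxypeptidase, did not switch (chosen after its values were seen). It read 13.41, 13.27 and 13.37 in wild type II and 13.51, 13.48 and 13.16 in wild type I. The mast cell list of 9 measured genes, Tpsab1 among them, had mean deviations of -0.31, -0.64 and 0.40 in wild type II. In wild type I they were 0.24, -0.11 and 0.41.
Over the knockout arrays, normalized together with the wild types, the tie to Xist was not kept. Ctsc was high on all type II knockout arrays (11.20, 10.30 and 10.29), of which replicate 2 alone had Xist, and on replicates 1 and 3 of the type I knockout. Tpsab1 was low on all 3 type II knockout arrays (4.66, 4.89 and 6.01) and high on all 3 type I knockout arrays (10.20, 10.18 and 11.20).

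Fcer1g, the common Fc receptor gamma chain, read 9.61, 9.59 and 10.55 in wild type II and 10.51, 9.55 and 4.43 in wild type I, and was undetected on replicate 3 of wild type I. Mcm6, a replicative helicase subunit, read 5.69 on that same array and 10.47 to 11.63 on the others, while its other 2 probes read 8.52 and 9.60 there, beside 9 to 9.54 and 9.88 to 10.36 on the other arrays. Cap1, an actin regulator, read 5.68 on replicate 1 of wild type II and 10.25 to 11.19 elsewhere.
Zfp330 read 4.88 on replicate 2 of wild type I and 9.70 to 10.63 elsewhere, while its second probe stayed between 8.36 and 8.86. For Mcm6 and Zfp330 a drop of this size was thus seen on 1 probe, and for Ctsc on all 3. Hprt, a purine salvage enzyme used as a reference gene, was low on replicate 2 of wild type I (8.10, against 10.63 to 11.59 on the others), and so was each of its other 2 probes, although 1 of these was lower still on replicate 3.

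**Figure D4:**
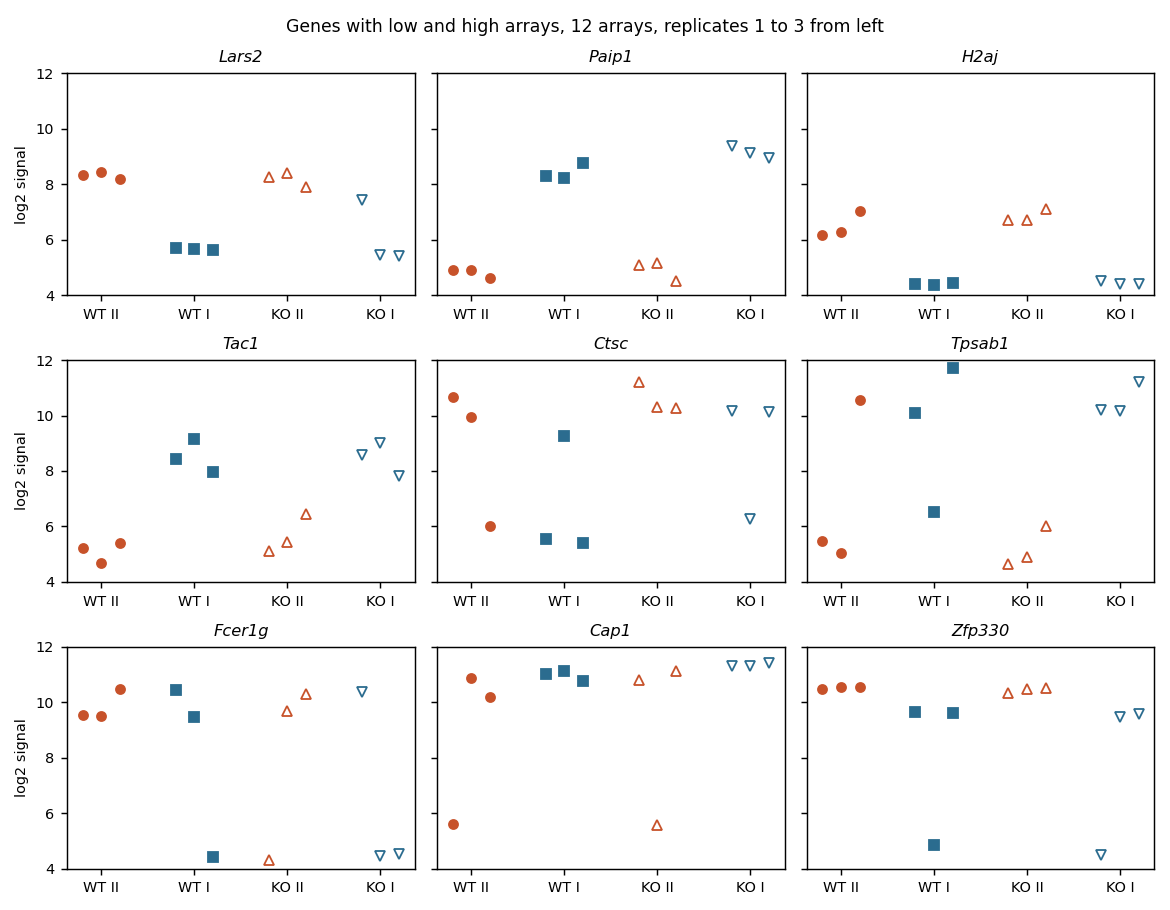
Log2 signal (vertical axis) of 9 genes on all 12 arrays, normalized together, by group, with wild types filled, knockouts open and replicates 1 to 3 from left to right. Lars2, Paip1, H2aj and Tac1 split by arm of the study, although Lars2 on replicate 1 of the type I knockout (7.42) lies near the type II arm. Ctsc, Tpsab1, Fcer1g, Cap1 and Zfp330 have low and high arrays within groups.

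The knockouts, which share no array with the wild types though they share title numbers, were used to ask whether the genes that differed between the wild types also differed between the 2 knockouts. Between type II and type I knockouts 1538 of the 10505 genes were called (14.6%), 765 higher (7.28%) and 773 lower (7.36%). Of the 45 genes higher in wild type II, 24 (53.3%) were also higher in the type II knockout, 1 was lower, and 38 had positive differences, beside 50.1% of all genes. Of the 105 genes lower in wild type II, 37 (35.2%) were also lower in the type II knockout, 3 were higher, and 94 had negative differences, beside 49.9%. That gave 61 genes called the same way in both comparisons and 4 called in opposite ways. The first number was between 12 and 43 when 1 wild-type array was left out.

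Genes called the same way included most of those with the largest differences. Paip1 read 5.08, 5.16 and 4.50 in the type II knockout and 9.38, 9.11 and 8.93 in the type I knockout (-4.23 ± 0.21; adjusted p = 1.46e-07). H2aj read 6.72, 6.70 and 7.09 in the type II knockout and 4.52, 4.40 and 4.41 in the type I knockout, where no array detected it, and was at least 3.56-fold higher in the type II knockout (adjusted p = 3.06e-05). Each thus split all 12 arrays by arm of the study.
Lars2 read 8.24, 8.39 and 7.90 in the type II knockout and 7.42, 5.46 and 5.42 in the type I knockout (2.08 ± 0.41; adjusted p = 0.00615), so that replicate 1 of the type I knockout lay nearer to the type II arm than to its own group. Tac1 (-2.80), Gjd4 (-2.34), Arhgap35 (-2.32), Xkr8 (1.12) and Tagap (1.07) were also called in their wild-type direction between the knockouts.

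For other genes the difference itself changed. The test of the change itself, the difference between knockouts minus that between wild types, called 294 genes (2.8%), 14 of the 150 among them. The 150 were picked on the same wild-type difference that this test subtracts. A change against that difference is thus favoured by the choice of genes. Pou6f1, at least 4.66-fold higher in wild type II, read 4.54, 4.46 and 4.42 in the type II knockout and 5.88, 5.97 and 4.40 in the type I knockout, and its change of -3.72 ± 0.55 was called (adjusted p = 0.00436). All 3 type II knockout arrays thus lay at the level of wild type I. Adm read 10.49, 11.67 and 10.24 in the type II knockout and 8.31, 8.19 and 9.04 in the type I knockout, higher in the type II knockout where it had been lower in wild type II (change 3.22 ± 0.45; adjusted p = 0.0033). Both knockouts lay above every wild-type array.
Vldlr, a lipoprotein receptor, and the orphan receptor Gpr176 likewise switched sign, as did 1 unnamed probe. Vldlr differed by -1.24 ± 0.15 between the wild types and by 1.20 ± 0.17 between the knockouts (change 2.45 ± 0.24; adjusted p = 0.000349). Among the cholesterol genes the differences between knockouts were 0.31 for Fdps, 0.06 for Cyp51, 0.68 for Lss, -0.01 for Mvd and 0.04 for Hmgcs1. Of these Lss alone was called (adjusted p = 0.0246), and the change was called for Cyp51 (-1.18 ± 0.27; adjusted p = 0.0411). For the other 4 genes the change did not pass the threshold, which does not show that they behaved alike. The 5 called H2A genes of the list differed by -0.32 to -0.83 between the knockouts, the same sign as between the wild types. None of the 5 was called there, and none had a called change (adjusted p of the change 0.54 to 0.862).

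**Figure D5:**
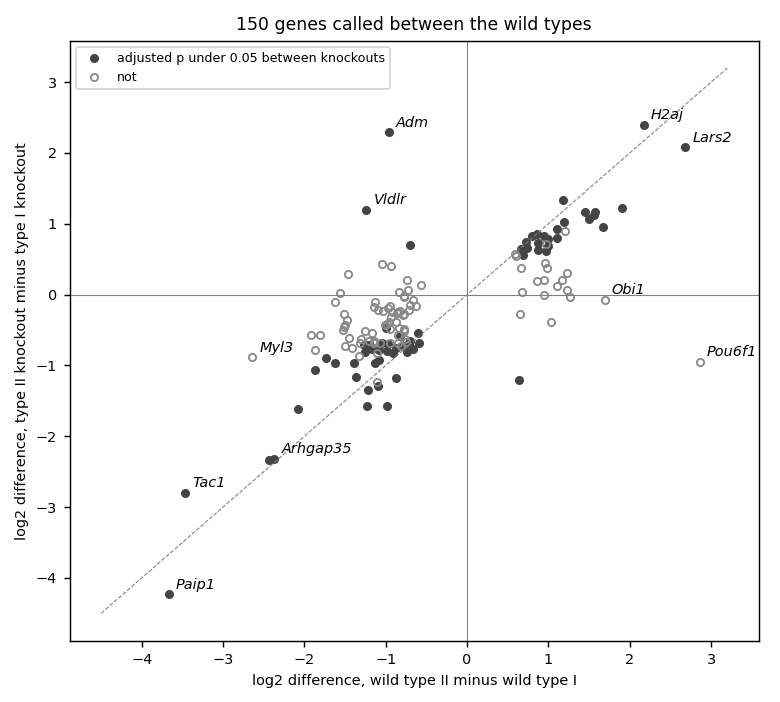
Log2 difference between type II and type I knockouts (vertical axis) against that between wild type II and wild type I (horizontal axis) for the 150 genes called between the wild types, filled where the knockouts also differed, with the line of equal differences dashed. Paip1, Tac1, Lars2 and H2aj lie near the dashed line, and Adm, Vldlr and Pou6f1 lie across an axis from it.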

How the data were processed

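Back-skin RNA (Trizol, then RNeasy with DNase I) was amplified to biotin-labelled cRNA, per the labels' protocols. The authors deposited a table of mean bead signals, an intensity that per the file headers is not normalized, with a detection p-value per probe and array. Slide identities were not used here. A second deposited table holds normalized intensities by the authors, on a linear scale by their values (array medians 16.3 to 16.4; 25.2% to 25.3% below 0). As an alternative these were raised to at least 0, increased by 16 and logged.

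The 6 wild-type arrays were corrected by normexp (offset 16, with the background estimated through the detection p-values), quantile normalized, put on the log2 scale and fitted alone with limma 3.58.1 in R 4.3.3 (lmFit, eBayes; 4 residual degrees of freedom), with Benjamini-Hochberg adjustment over all genes. Knockout comparisons used the same probes and all 12 arrays (8 residual degrees of freedom). Probes carried 1 symbol (23978) or none (1719) in the platform annotation, updated through RefSeq GRCm38.p6 (0 changed, 16 identifiers lacking). A gene was its probe with the highest mean. Where no array of a group detected it, folds are "at least", against the mean, per array, of the higher of its own value and the lowest detected value. Precision is limited by having 3 arrays per group. The computations were tested on simulated data. The members and gene lists were chosen with earlier results of these data known. Named genes were the 12 largest rises and falls with groups apart, the 3 members of a list with the smallest p, the 20 brightest, the 10 with the largest spread, 4 keratins and sex-linked genes; exceptions are marked or are called list members.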

Additional observations from a re-analysis of the deposited data

Results flagged for a closer look

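The series difference changed between wild types and knockouts by the interaction test (limma, 12 arrays) in 14 of the genes named above, given as the difference between knockouts minus that between wild types. In the keratins of the deleted clusters it was 9.97 for Krt14, 8.28 for Krt10, -7.04 for Krt5 and -5.89 for Krt1, each a gene that one knockout lacks. Among the genes called between the wild types it was 3.22 for Adm, 2.45 for Vldlr, 1.52 for Lipa, 1.39 for Gpr176, -1.18 for Cyp51, -1.26 for Slurp1 and -3.72 for Pou6f1. Called genes were picked on the wild-type difference that the test subtracts, which favours changes against it. Msmo1, Lce1f and Lor, not called between the wild types, changed by -1.28, -3.33 and -4.63. Slurp1 was undetected in wild type I and in both knockouts, and Pou6f1 in wild type I and in the type II knockout, so the sizes of their changes rest on background levels. Adjusted p-values for these 14 ran from 1.95e-12 for Krt14 to 0.0411 for Cyp51. No cause was tested.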

How the results depend on the processing

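Over 20 alternatives the 47 called genes examined by name gave 930 values, of which 324 lost the call and 0 reversed. Against 150 called genes (45 higher, 105 lower; 61 called the same way between the knockouts), the counts were 93 without background correction (63 lower; 36 the same way), 78 with no filter on dim probes (28 higher, 50 lower; 32), 405 with array weights (152 higher, 253 lower; 133) and 33 with a covariate for sex (14 higher, 19 lower; 20). A block by replicate number gave 85 (28 higher, 57 lower, and 36 the same way between the knockouts). Replicate numbers follow the order of the samples, and no label pairs arrays across the arms. Arrays with the same replicate number deviated together little (correlations of 0.03, 0.08 and 0.10) and so were not paired. Higher calls numbered 88 with median scaling, 69 with every probe by itself and 76 with all 12 arrays. With all 12 arrays and the title number as a random block 103 genes were called, 67 of them lower. Leaving out 1 wild-type array gave 20 to 103 called (7 to 31 higher, 9 to 72 lower) and 12 to 43 the same way between knockouts. Leaving out 1 of 12 arrays gave 770 to 1745 calls between knockouts (1538 with all) and 130 to 592 for the change (294 with all), which was 486 with the title number as a random block. Signs reversed for 4 keratins that were not called: Krt10 (0.18) and Krt5 (0.14) with median scaling, Krt5 without replicate 3 of wild type II (0.24), and Krt1 (-0.12) and Krt14 (-0.02) without its replicate 1. Over all arrays left out, Krt5 ranged from -0.34 to 0.24, Krt1 from -0.12 to 0.59 and Krt14 from -0.02 to 0.1. The causes were not tested, beyond the fewer arrays or the more genes tested that some alternatives imply. A slide block was not run, since slide identities were not used here. Signals near background limit genes undetected in a group, and with 3 arrays per group differences of about the median SE of 0.15 cannot be resolved.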
